A study of Mus musculus with 14 samples.

Results

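The transcripts of epidermal stem cells (EpdSC) were compared with those of hair follicle stem cells (HFSC) in back skin of female mice aged 2 months. The comparison rests on 4 of the 14 samples of the study, 2 RNA-seq libraries per population, chosen by their labels. Both populations were released from skin with trypsin and sorted by flow cytometry as lineage-negative cells with high integrin α6. HFSC carried CD34 and lacked Sca1 on their surface, and EpdSC carried Sca1 and lacked CD34. The mice are labelled C57B8 in one field and C57B6 in another, and no genotype or treatment other than the sort separates the groups. The 4 libraries of mice aged 24 months, sorted in the same manner, entered the fit and are used to see whether differences recurred. The labels do not say whether the 2 libraries of a population came from separate animals or pools, so the p-values rest on the spread of these libraries alone, and that spread may be technical.

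The bulge of the hair follicle holds stem cells that rest for most of the hair cycle and rebuild the lower follicle when growth starts. The basal layer of the epidermis between follicles renews throughout life and sends cells upwards, where they make suprabasal keratins and the cornified barrier. WNT signals are known to drive follicle stem cells into growth, BMP signals to hold them at rest, and hedgehog signals to act on the follicle from its own matrix and from nerves.

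The RNA libraries held 28790403 and 25126808 counts in HFSC and 35905505 and 29923009 in EpdSC. A count was present for 30993 and 26407 genes in HFSC and for 26234 and 30334 in EpdSC. Of all counts, 14.96% and 15.23% in HFSC and 13.02% and 13.14% in EpdSC were of mt-Rnr2, a mitochondrial ribosomal RNA. Levels are given as CPM, the library's count scaled to a fixed total and corrected for composition, for each library or as mean ± SD of 2 libraries. Fold changes are log2 values of EpdSC minus HFSC with a standard error (SE), so positive values are higher in EpdSC. A gene was called at an edgeR adjusted p under 0.05. CPM are not divided by transcript length, so levels are compared between populations and not between genes. In bulk RNA, fewer cells of a type and less RNA per cell cannot be told apart.

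The genes behind the sort followed their labels in every library. Cd34 (ENSMUSG00000016494.9, chromosome 1, 194938821 to 194961292), the surface sialomucin used to gate follicle stem cells, was at 1807 and 1715 CPM in HFSC and 0.588 and 1.81 CPM in EpdSC. Ly6a (ENSMUSG00000075602.10, chromosome 15, 74994877 to 74998031), which encodes Sca1, was at 0.399 and 0.629 CPM in HFSC and 218 and 133 CPM in EpdSC. These differences were set by the sort and are not a result. Itga6, the integrin α6 chain for which both populations were gated high, was at 492 and 503 CPM in HFSC and 2108 and 1633 CPM in EpdSC (log2 fold change 1.91, SE 0.17, adjusted p = 6.52e-06 in edgeR). Both EpdSC libraries lay above both HFSC libraries, although the gate asked for high α6 protein in both.

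Of 21464 genes tested, 2788 were called higher in EpdSC (13.0%) and 2812 higher in HFSC (13.1%), in all 26.1%. These shares are the measure for the counts called in each gene list below. The difference reached at least 2-fold for 1552 genes higher in EpdSC (7.23%) and 2205 higher in HFSC (10.3%), and at least 16-fold for 254 and 510. The median log2 fold change was 1.14 among genes called higher in EpdSC, -1.90 among those called higher in HFSC and -0.06 over all genes. The libraries of the populations did not overlap for any of the 5600 calls except Cyp2g1 and Hist1h3f, beside 62.4% of all genes tested. Every other gene described as higher in one population was called by this test and had both of its libraries above both of the other. For genes named by largest difference or from the lists, that lack of overlap was a condition of being named, so it is not a result. Without EpdSC replicate 1, 1685 and 1983 genes were called, and in tests against a fold of 2, 872 and 1309.

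**Figure D1:**
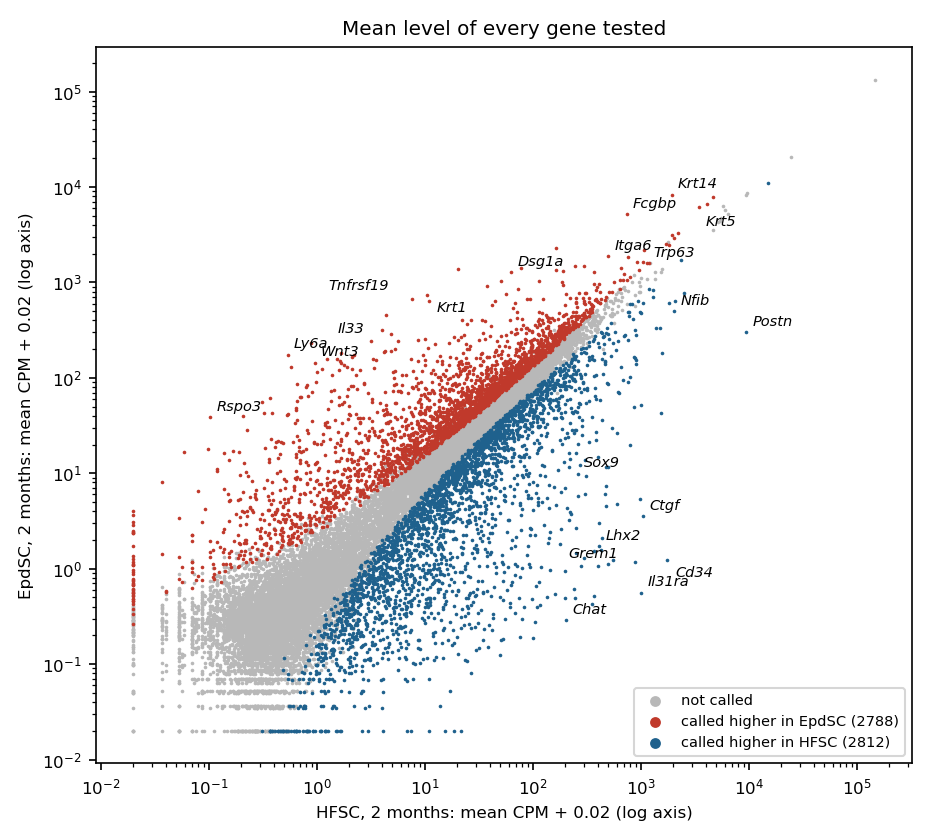
Mean level of each tested gene in HFSC (horizontal axis) and EpdSC (vertical axis) at 2 months, as mean CPM of 2 libraries plus 0.02 on log axes. Red points are the 2788 genes called higher in EpdSC, blue points the 2812 called higher in HFSC and grey points the genes not called. Named genes at the lower right, such as Grem1 and Il31ra, were low in EpdSC, and those at the upper left, such as Wnt3 and Rspo3, low in HFSC.

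Il31ra, a receptor subunit for the itch cytokine IL-31, was at 1182 and 825 CPM in HFSC and 0.324 and 0.757 CPM in EpdSC (log2 fold change -10.87, SE 0.55, adjusted p = 7.85e-08 in edgeR). Grem1 (ENSMUSG00000074934.3, chromosome 2, 113748675 to 113758648), a secreted antagonist of BMPs, was at 948 and 832 CPM in HFSC and 1.12 and 1.18 CPM in EpdSC (log2 fold change -9.59, SE 0.21, adjusted p = 8.1e-10 in edgeR). Chat, the enzyme that makes acetylcholine, was at 199 and 210.1 CPM in HFSC and 0.147 and 0.395 CPM in EpdSC (log2 fold change -9.57, SE 0.28). All 3 were abundant in both HFSC libraries and at 1.18 CPM or less in both EpdSC libraries. Gfra1, a receptor chain for the growth factor GDNF, was at 187 and 300.3 CPM in HFSC and 0.441 and 0.493 CPM in EpdSC (log2 fold change -9.02, SE 0.40). The adenylyl cyclase Adcy1 (log2 fold change -9.81, SE 0.53) and Shisa2, a membrane protein of a family that restrains WNT and FGF receptors (log2 fold change -9.55, SE 0.32), differed as widely. Myocilin (Myoc), a secreted glycoprotein, was 578-fold higher in HFSC (101 ± 22.9 CPM in HFSC and 0.169 ± 0.0525 CPM in EpdSC).

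Several genes had no count at all in EpdSC. Cck, the precursor of the peptide hormone cholecystokinin, was at 19.2 and 24.0 CPM in HFSC and 0 and 0 CPM in EpdSC and so at least 460.0-fold higher in HFSC. For the potassium channel gene Kcnk10 the levels were 18.9 and 11.6 CPM in HFSC and 0 and 0 CPM in EpdSC, at least 334-fold higher in HFSC. Nppc, which encodes the C-type natriuretic peptide, was at 9.15 and 4.45 CPM in HFSC and 0 and 0 CPM in EpdSC. The bounds set the EpdSC group at 3 counts. Lmcd1 had 2 counts in EpdSC beside 17.0 ± 7.28 CPM in HFSC and 0.0329 ± 0.0465 CPM in EpdSC.

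Postn, which encodes the matricellular protein periostin, had the largest excess in mean CPM among genes called higher in HFSC. It was at 8757 and 10022 CPM in HFSC and 304 and 295 CPM in EpdSC (log2 fold change -4.97, SE 0.24, adjusted p = 6.38e-08 in edgeR). Hmcn1, the matrix protein hemicentin, was at 1212 and 1833 CPM in HFSC and 35.0 and 51.1 CPM in EpdSC (log2 fold change -5.14, SE 0.26, adjusted p = 7.32e-08 in edgeR). The chemokine gene Cxcl14 was high in both populations, at 2157 and 1504 CPM in HFSC and 785 and 421 CPM in EpdSC (log2 fold change -1.60, SE 0.41), and the call was lost without EpdSC replicate 2 (-1.20). The junction protein Mllt4 (1503 ± 122 CPM in HFSC and 334 ± 20.8 CPM in EpdSC), the cytoskeletal linker Macf1 (2496 ± 566 CPM in HFSC and 769 ± 173 CPM in EpdSC) and the taurine transporter Slc6a6 (2055 ± 218 CPM in HFSC and 635 ± 18.1 CPM in EpdSC) were also called higher in HFSC, by log2 values of -2.17, -1.70 and -1.69. The mitochondrial ribosomal RNA mt-Rnr1 was called higher in HFSC by a small fold (log2 fold change -0.47, SE 0.12), and the call was lost without HFSC replicate 1 (-0.43), EpdSC replicate 1 (-0.45) or EpdSC replicate 2 (-0.46).

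In the other direction, Il20ra, a receptor subunit for cytokines of the IL-20 family, was at 232 and 229.5 CPM in EpdSC and 0.732 and 0.983 CPM in HFSC (log2 fold change 8.08, SE 0.21, adjusted p = 2.49e-09 in edgeR). Wnt3 (ENSMUSG00000000125.5, chromosome 11, 103774175 to 103818021), a WNT ligand, was at 167 and 122 CPM in EpdSC and 0.766 and 1.10 CPM in HFSC (log2 fold change 7.28, SE 0.37, adjusted p = 8.01e-08 in edgeR). Bmp3, a member of the BMP family that opposes BMP signals, was at 113 and 147 CPM in EpdSC and 0.366 and 0.747 CPM in HFSC (log2 fold change 7.89, SE 0.37). Each of these was near or below 1 CPM in both HFSC libraries. Rspo3, an R-spondin that strengthens WNT signals, was at 25.3 and 52.2 CPM in EpdSC and 0.166 and 0 CPM in HFSC, with 5 counts in HFSC in all, each in replicate 1 (log2 fold change 8.69, SE 0.80). Without that library the fitted value was 13.20, which depends on the fit's prior count. Cysltr1, a receptor for leukotrienes, was at 49.1 and 61.8 CPM in EpdSC and 0.0333 and 0.551 CPM in HFSC (log2 fold change 7.64, SE 0.50), and Mmp28, the metalloprotease epilysin, at 61.8 ± 15.5 CPM in EpdSC and 0.351 ± 0.163 CPM in HFSC (log2 fold change 7.41, SE 0.32). The cytochrome Cyp3a13 was 139-fold higher (28.4 ± 5.41 CPM in EpdSC and 0.207 ± 0.152 CPM in HFSC). The non-classical MHC gene H2-M2 had 2 counts in HFSC beside 16.8 ± 2.50 CPM in EpdSC and 0.0393 ± 0.0556 CPM in HFSC, and Ceacam12 had 1 beside 7.98 ± 2.77 CPM in EpdSC and 0.0166 ± 0.0235 CPM in HFSC.

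Krt14 (ENSMUSG00000045545.8, chromosome 11, 100203162 to 100207510), the basal type I keratin, had the largest excess in mean CPM in EpdSC. It was at 2104 and 1762 CPM in HFSC and 9168 and 7444 CPM in EpdSC (log2 fold change 2.10, SE 0.23, adjusted p = 2.76e-05 in edgeR). Its partner Krt5 was at 3264 and 3693 CPM in HFSC and 6372 and 5907 CPM in EpdSC (log2 fold change 0.82, SE 0.15, adjusted p = 0.00202 in edgeR). Dsg1a, a desmosomal cadherin, was at 48.5 and 77.3 CPM in HFSC and 1429 and 1117 CPM in EpdSC (log2 fold change 4.34, SE 0.25). Pkp1, a desmosomal plaque protein, was at 218 and 269 CPM in HFSC and 1525 and 1419 CPM in EpdSC (log2 fold change 2.60, SE 0.18). Fcgbp, a mucin-like secreted protein, was at 614 and 867 CPM in HFSC and 5053 and 5285 CPM in EpdSC (log2 fold change 2.80, SE 0.18). Clca3a2, of the calcium-activated chloride channel regulators, was at 15.4 and 25.2 CPM in HFSC and 1385 and 1361 CPM in EpdSC (log2 fold change 6.08, SE 0.33). The giant scaffold protein Ahnak (log2 fold change 0.77, SE 0.16) and the elongation factor Eef1a1 (log2 fold change 0.69, SE 0.13) differed by less than 2-fold.

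**Figure D2:**
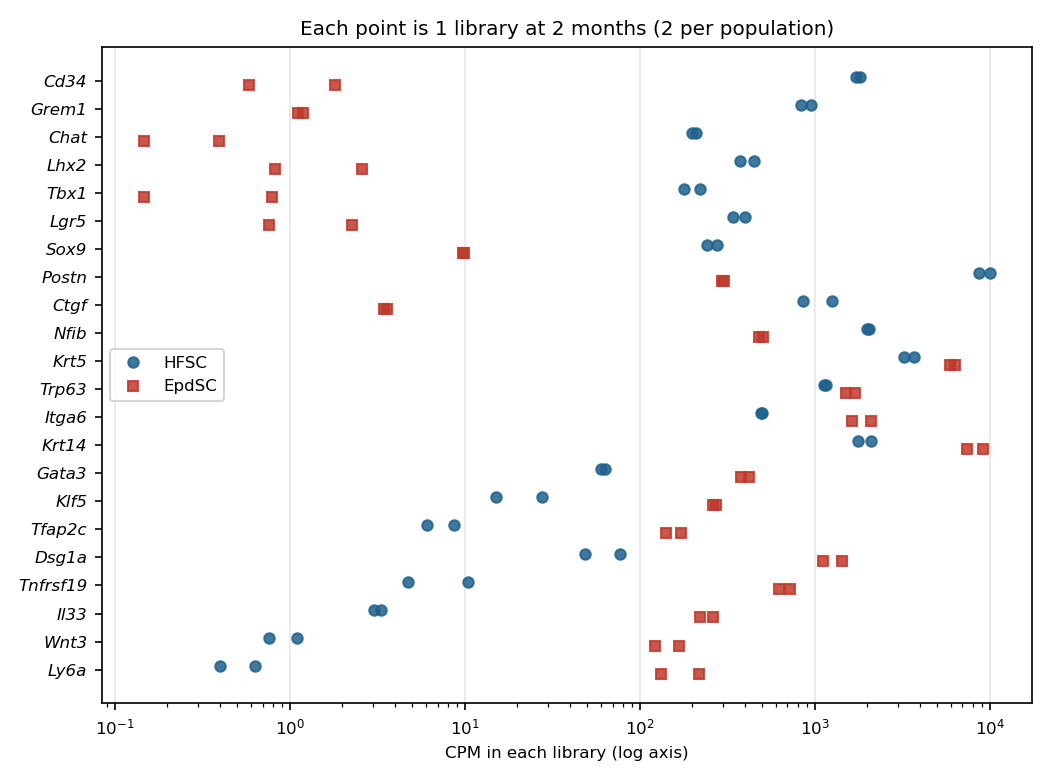
CPM of 22 named genes in each of the 4 libraries, on a log axis, with HFSC as blue circles and EpdSC as red squares. For every gene shown the libraries of both populations stand apart, from Cd34 and Grem1, near 1 CPM in EpdSC, through the shared basal genes Krt5 and Trp63, which differ by less than 2-fold, to Wnt3 and Ly6a, near 1 CPM in HFSC.

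Transcription factors known from follicle stem cells were mostly higher in HFSC. Of 22 tested, 16 were called higher in HFSC and 3 higher in EpdSC, with a median log2 fold change of -2.32. Lhx2, a homeodomain factor that maintains the bulge, was at 375 and 450.3 CPM in HFSC and 0.824 and 2.60 CPM in EpdSC (log2 fold change -7.93, SE 0.48, adjusted p = 2.92e-07 in edgeR). Tbx1, a T-box factor of slow-cycling follicle stem cells, was at 179.5 and 221 CPM in HFSC and 0.147 and 0.790 CPM in EpdSC (log2 fold change -8.77, SE 0.51, adjusted p = 2.36e-07 in edgeR). Both were high in the 2 HFSC libraries and at 2.60 CPM or less in the 2 EpdSC libraries. Sox9, which specifies follicle stem cells, was at 277 and 243 CPM in HFSC and 9.79 and 9.93 CPM in EpdSC (log2 fold change -4.72, SE 0.24). Foxc1, a forkhead factor of bulge quiescence, was at 133 and 183 CPM in HFSC and 6.29 and 8.03 CPM in EpdSC (log2 fold change -4.46, SE 0.27). Nfib, a nuclear factor I protein of the follicle stem cell chromatin, stayed abundant in both populations, at 2037 and 2003 CPM in HFSC and 509 and 484 CPM in EpdSC (log2 fold change -2.02, SE 0.14). Nfatc1, a brake on bulge cell division, was 5.84-fold higher in HFSC (331 ± 70.4 CPM in HFSC and 56.6 ± 11.6 CPM in EpdSC), Runx1 10.6-fold (126 ± 39.4 CPM in HFSC and 12.0 ± 1.08 CPM in EpdSC), Foxp1 4.27-fold (316 ± 45.1 CPM in HFSC and 73.8 ± 17.9 CPM in EpdSC) and Barx2 3.27-fold (138 ± 24.7 CPM in HFSC and 42.3 ± 0.0801 CPM in EpdSC). The WNT effectors Tcf7l1 (-3.32, SE 0.38) and Tcf7l2 (-1.82, SE 0.18) were also higher in HFSC. The list was not uniform. Gata3, a zinc-finger factor that also acts in epidermal barrier formation, was called higher in EpdSC (61.6 ± 2.33 CPM in HFSC and 400.2 ± 29.3 CPM in EpdSC, log2 fold change 2.70, SE 0.17). So were Nfia (log2 fold change 0.72, SE 0.16) and Sox4 (log2 fold change 1.44, SE 0.43). For Nfia the call was lost without EpdSC replicate 2 (0.52), and for Sox4 the call was lost without HFSC replicate 1 (1.02) or EpdSC replicate 1 (1.31). Nfix was not called (279 ± 36.3 CPM in HFSC and 287 ± 12.3 CPM in EpdSC, edgeR adjusted p = 0.885).

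Transcription factors of the epidermis were mostly higher in EpdSC, with 15 of 23 called in that direction, 2 called higher in HFSC and a median of 0.82. Tfap2c, an AP-2 factor of keratinocyte fate, was at 173 and 142 CPM in EpdSC and 6.13 and 8.65 CPM in HFSC (log2 fold change 4.42, SE 0.26, adjusted p = 2.56e-07 in edgeR). Klf5, a Krüppel-like factor of proliferating epithelia, was at 262 and 271 CPM in EpdSC and 15.1 and 27.6 CPM in HFSC (log2 fold change 3.65, SE 0.24, adjusted p = 6.4e-07 in edgeR). The aryl hydrocarbon receptor Ahr was at 246 and 310.4 CPM in EpdSC and 20.7 and 24.8 CPM in HFSC (log2 fold change 3.61, SE 0.17). In all 3 genes each EpdSC library lay well above both HFSC libraries. Grhl3 and Zfp750, which drive terminal differentiation, were 14.6-fold and 12.4-fold higher in EpdSC (log2 fold change 3.87, SE 0.33 and 3.63, SE 0.23). Trp63, the p63 factor that defines basal cells of stratified epithelia, was abundant in both populations, at 1133 and 1163 CPM in HFSC and 1697 and 1508 CPM in EpdSC (log2 fold change 0.48, SE 0.14), and the call was lost without HFSC replicate 1 (0.49), HFSC replicate 2 (0.49) or EpdSC replicate 1 (0.40). Prdm1 (10.4 ± 0.360 CPM in HFSC and 0.599 ± 0.223 CPM in EpdSC) and the homeobox gene Dlx3 (14.3 ± 0.230 CPM in HFSC and 0.688 ± 0.516 CPM in EpdSC) were called higher in HFSC. Grhl2 was not called (log2 fold change 0.23, SE 0.17).

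Surface and secreted proteins known from follicle stem cells were the list with the highest share called in HFSC. Of 31 tested, Cd34 included, 27 were called higher there and 1 higher in EpdSC, with a median of -4.97. Lgr5, a receptor for R-spondins that marks the lower bulge, was at 398 and 343 CPM in HFSC and 0.765 and 2.27 CPM in EpdSC (log2 fold change -7.95, SE 0.42, adjusted p = 1.21e-07 in edgeR). Ctgf, a matricellular protein, was at 856 and 1256 CPM in HFSC and 3.44 and 3.59 CPM in EpdSC (log2 fold change -8.23, SE 0.43, adjusted p = 9.93e-08 in edgeR). Angptl7, a secreted angiopoietin-like protein, was at 338 and 463 CPM in HFSC and 1.12 and 0.954 CPM in EpdSC (log2 fold change -8.59, SE 0.43). All 3 were at 338 CPM or more in both HFSC libraries and at 3.59 CPM or less in both EpdSC libraries. Ltbp2, which binds microfibrils, was at 554 ± 18.0 CPM in HFSC and 1.21 ± 0.710 CPM in EpdSC, Igfbp5, an IGF-binding protein, at 294 ± 172 CPM in HFSC and 1.28 ± 0.513 CPM in EpdSC, and Cd200, an inhibitory immune ligand, at 215 ± 34.6 CPM in HFSC and 3.23 ± 1.29 CPM in EpdSC. The 1 member called in the other direction was Lgr6, a relative of Lgr5 in the upper follicle and epidermis (256 ± 58.2 CPM in HFSC and 363 ± 32.7 CPM in EpdSC, log2 fold change 0.51, SE 0.17), and the call was lost without the 24-month EpdSC replicate 1 (0.50), HFSC replicate 1 (0.32), EpdSC replicate 1 (0.42) or EpdSC replicate 2 (0.61). Krt15, often used as a bulge marker, was not called, at 4693 and 6343 CPM in HFSC and 4120.2 and 5436 CPM in EpdSC (log2 fold change -0.21, SE 0.18), and its libraries overlapped.

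Among 23 genes of interfollicular basal cells 13 were called higher in EpdSC and 2 higher in HFSC (median 0.82). Ly6a is among them and was set by the sort. Other Ly6 genes, which encode small proteins on a membrane anchor, were also higher, Ly6d at 687 and 574 CPM in EpdSC and 7.29 and 14.4 CPM in HFSC (log2 fold change 5.86, SE 0.32, adjusted p = 1.38e-07 in edgeR) and Ly6c1 at 21.8 and 11.3 CPM in EpdSC and 0.300 and 0.0393 CPM in HFSC (log2 fold change 6.51, SE 0.63, adjusted p = 1.17e-05 in edgeR). Ly6e was at 100.4 and 81.3 CPM in EpdSC and 9.35 and 8.81 CPM in HFSC (log2 fold change 3.32, SE 0.21). Reads of near-identical Ly6 genes may have been shared in counting, so single members are uncertain. Sfn, the 14-3-3 protein stratifin, was 3.74-fold higher in EpdSC (761 ± 359 CPM in EpdSC and 203 ± 106 CPM in HFSC), and Fgfbp1, a carrier of FGFs, 5.48-fold (162 ± 40.1 CPM in EpdSC and 29.5 ± 4.70 CPM in HFSC). Pthlh, a parathyroid hormone relative (14.1 ± 4.58 CPM in HFSC and 1.23 ± 0.715 CPM in EpdSC), and Sostdc1, an antagonist of WNT and BMP (217 ± 82.4 CPM in HFSC and 81.2 ± 11.2 CPM in EpdSC), were called higher in HFSC. The hemidesmosomal genes of this list, Col17a1 (log2 fold change -0.16, SE 0.13), Itgb4 (0.11, SE 0.15), Lama3 (0.25, SE 0.15) and Lamb3 (-0.30, SE 0.14), were not called.

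Genes of the suprabasal layers and the cornified envelope were also higher in EpdSC, 12 of 31 tested, with 3 higher in HFSC and a median of 1.02. Krt1 and Krt10, the keratin pair that replaces Krt5 and Krt14 above the basal layer, differed by 71.9-fold and 24.4-fold. Krt1 was at 709.9 and 766 CPM in EpdSC and 2.70 and 18.0 CPM in HFSC (log2 fold change 6.17, SE 0.65, adjusted p = 2.53e-05 in edgeR). Krt10 was at 845 and 981 CPM in EpdSC and 13.6 and 61.2 CPM in HFSC (log2 fold change 4.61, SE 0.53, adjusted p = 4.52e-05 in edgeR). Krt77 was at 1453 and 1391 CPM in EpdSC and 22.9 and 131 CPM in HFSC (log2 fold change 4.21, SE 0.60). The HFSC libraries were far from each other for Krt1, Krt10 and Krt77, and replicate 2 was the higher of them for each. Abca12, a lipid transporter of lamellar granules (150.5 ± 10.5 CPM in EpdSC and 12.8 ± 1.94 CPM in HFSC), Tgm3, a transglutaminase (20.3 ± 10.9 CPM in EpdSC and 0.991 ± 0.0108 CPM in HFSC), and Casp14, a caspase of cornification (19.6 ± 0.315 CPM in EpdSC and 1.60 ± 0.852 CPM in HFSC), were called higher in EpdSC, as was the spinous-layer gene Krtdap (184 ± 17.0 CPM in EpdSC and 22.6 ± 12.3 CPM in HFSC). The calmodulin-like gene Calml3 went the other way, at 472 and 718 CPM in HFSC and 3.59 and 5.95 CPM in EpdSC (log2 fold change -6.97, SE 0.48), and so did Sbsn (log2 fold change -1.51, SE 0.14) and the transglutaminase Tgm1 (log2 fold change -1.70, SE 0.53), although the call was lost without HFSC replicate 2 (-1.03), EpdSC replicate 1 (-1.53) or EpdSC replicate 2 (-1.86).

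Of 21 keratins of the basal, suprabasal and follicle layers, 7 were called higher in EpdSC and 6 in HFSC. Besides the genes above, Krt2 (log2 fold change 3.69, SE 0.58) and Krt78 (log2 fold change 3.72, SE 0.49) were higher in EpdSC. Some follicle keratins were higher in HFSC, while Krt15, often used as a bulge marker, was not called. Krt24 was at 227 and 269 CPM in HFSC and 1.29 and 1.61 CPM in EpdSC (log2 fold change -7.42, SE 0.30, adjusted p = 2.43e-08 in edgeR). Krt75, of the companion layer, was at 40.4 and 43.3 CPM in HFSC and 0.118 and 0.296 CPM in EpdSC (log2 fold change -7.66, SE 0.33, adjusted p = 3.22e-08 in edgeR). Krt17 (909 ± 149.6 CPM in HFSC and 155 ± 34.9 CPM in EpdSC) and Krt6a (404 ± 152 CPM in HFSC and 14.9 ± 16.5 CPM in EpdSC) were present in both populations with an excess in HFSC, and Krt6a may share reads with its near-identical copy. Of 13 genes of the upper follicle and junctional zone, 4 were called higher in HFSC, among them Aqp3, a water and glycerol channel (786 ± 17.2 CPM in HFSC and 101 ± 83.3 CPM in EpdSC), and 2 higher in EpdSC, Klk10 (15.1 ± 0.450 CPM in EpdSC and 3.65 ± 0.259 CPM in HFSC) and Lrig1 (243 ± 25.7 CPM in EpdSC and 155 ± 6.71 CPM in HFSC), where the call was lost without EpdSC replicate 1 (0.54).

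**Figure D3:**
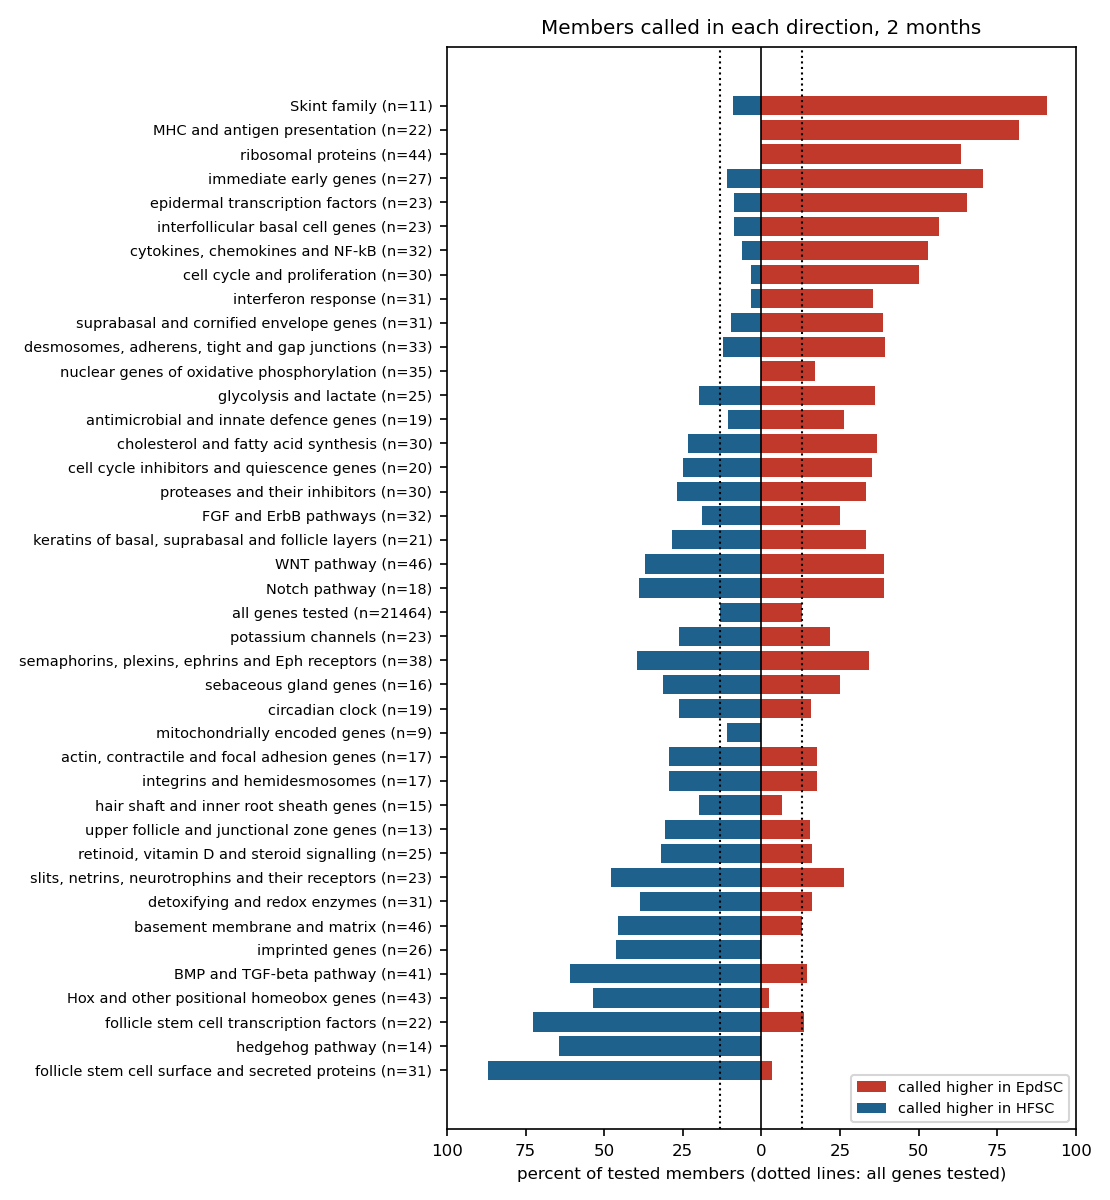
Share of gene lists called higher in EpdSC (red bars, to the right) and higher in HFSC (blue bars, to the left), in percent of the members tested, with the number tested in brackets. Lists of melanocyte, Langerhans and myeloid, T cell, fibroblast, endothelial, pericyte, Merkel cell and Schwann cell markers are not drawn. Dotted lines mark the shares over all genes tested, 13.0% and 13.1%. Skint, MHC, ribosomal protein and immediate early genes are at the top, and follicle stem cell surface proteins, hedgehog genes and follicle transcription factors at the bottom.

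WNT pathway genes were called in both directions, 18 higher in EpdSC and 17 higher in HFSC of 46 tested (median -0.06). Of the 10 ligand genes called, 9 were higher in EpdSC. Wnt3a was at 35.6 and 43.7 CPM in EpdSC and 0.0999 and 0.275 CPM in HFSC (log2 fold change 7.74, SE 0.34, adjusted p = 3.46e-08 in edgeR) and Wnt16 at 31.0 and 55.1 CPM in EpdSC and 0.333 and 0.275 CPM in HFSC (log2 fold change 7.12, SE 0.47, adjusted p = 6.04e-07 in edgeR). Wnt5a was at 36.6 and 31.1 CPM in EpdSC and 1.60 and 1.77 CPM in HFSC (log2 fold change 4.33, SE 0.22). These ligands, like Wnt3, had little or no signal in HFSC. Wnt10a (147 ± 16.3 CPM in EpdSC and 20.8 ± 0.0263 CPM in HFSC), Wnt4 (129 ± 26.4 CPM in EpdSC and 23.7 ± 3.05 CPM in HFSC), Wnt7b (121 ± 23.7 CPM in EpdSC and 36.4 ± 0.0251 CPM in HFSC) and Wnt10b (14.6 ± 0.206 CPM in EpdSC and 0.614 ± 0.591 CPM in HFSC) were also called. Wnt5b was the 1 ligand higher in HFSC (15.8 ± 0.786 CPM in HFSC and 4.21 ± 0.465 CPM in EpdSC, log2 fold change -1.90, SE 0.26).

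Of the WNT receptors, Fzd10 was at 210.2 and 156 CPM in EpdSC and 1.07 and 2.20 CPM in HFSC (log2 fold change 6.83, SE 0.32, adjusted p = 5.14e-08 in edgeR). Fzd2 was at 316 and 304 CPM in HFSC and 11.1 and 7.80 CPM in EpdSC (log2 fold change -5.04, SE 0.23, adjusted p = 4.9e-08 in edgeR). Fzd7 was at 368 and 393 CPM in HFSC and 22.9 and 21.5 CPM in EpdSC (log2 fold change -4.10, SE 0.20). Fzd1, Fzd3 and Fzd4 were also higher in HFSC (log2 fold change -3.01, SE 0.15, -3.99, SE 0.18 and -4.09, SE 0.44), as were the receptor tyrosine kinase Ror2 (-5.97, SE 0.67) and the R-spondin receptor Lgr4 (495 ± 137 CPM in HFSC and 86.5 ± 6.62 CPM in EpdSC). The coreceptor Lrp6 was higher in HFSC by a smaller fold (log2 fold change -1.02, SE 0.15).

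Among secreted WNT inhibitors, Sfrp1, which binds WNT ligands, was at 839 and 1152 CPM in HFSC and 51.4 and 51.1 CPM in EpdSC (log2 fold change -4.28, SE 0.20, adjusted p = 4.9e-08 in edgeR). Dkk3, of the Dickkopf family, was at 866 and 724 CPM in HFSC and 26.0 and 13.7 CPM in EpdSC (log2 fold change -5.32, SE 0.29, adjusted p = 1.49e-07 in edgeR). Wif1, WNT inhibitory factor, was at 26.1 and 23.8 CPM in HFSC and 0.118 and 0.625 CPM in EpdSC (log2 fold change -6.10, SE 0.61). Axin2, a scaffold of the β-catenin destruction complex, was at 64.1 and 82.8 CPM in HFSC and 157 and 184 CPM in EpdSC (log2 fold change 1.22, SE 0.17). Rnf43 and Znrf3, ligases that remove Frizzled receptors, were 2.06-fold and 2.10-fold higher in EpdSC, and Apcdd1, a membrane inhibitor, 19.5-fold (207 ± 45.2 CPM in EpdSC and 10.6 ± 0.609 CPM in HFSC). Nkd1, another feedback inhibitor, was higher in HFSC (10.6 ± 0.581 CPM in HFSC and 0.291 ± 0.287 CPM in EpdSC), as was the effector Lef1 (6.73 ± 2.83 CPM in HFSC and 0.359 ± 0.0504 CPM in EpdSC). β-catenin itself (Ctnnb1) was not called (log2 fold change -0.34, SE 0.15, edgeR adjusted p = 0.131). Which direction held the larger count of the whole list changed between fits, so no majority is given for it.

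Of 41 genes of the BMP and TGF-beta pathway 25 were called higher in HFSC and 6 higher in EpdSC, with a median of -1.55. Among ligands, Bmp4 was at 61.3 and 65.9 CPM in EpdSC and 0.499 and 0.865 CPM in HFSC (log2 fold change 6.56, SE 0.28, adjusted p = 3.22e-08 in edgeR). Bmp7 was at 42.6 and 37.6 CPM in EpdSC and 17.1 and 14.6 CPM in HFSC (log2 fold change 1.34, SE 0.27, adjusted p = 0.00312 in edgeR). Both were higher in EpdSC. Bmp6 was at 15.3 and 6.02 CPM in HFSC and 0.0882 and 0.658 CPM in EpdSC (log2 fold change -4.86, SE 0.74). Gdf10 was at 10.6 and 42.4 CPM in HFSC and 0.0882 and 0.0329 CPM in EpdSC (log2 fold change -8.64, SE 0.97). Both were higher in HFSC. Tgfb3 was 6.63-fold higher in HFSC (37.7 ± 9.64 CPM in HFSC and 5.68 ± 0.166 CPM in EpdSC). Secreted antagonists other than Bmp3 were higher in HFSC. Besides Grem1, Fst, which encodes follistatin, was at 464 and 306 CPM in HFSC and 30.9 and 22.9 CPM in EpdSC (log2 fold change -3.84, SE 0.32), and Nog, which encodes noggin, at 50.7 and 29.8 CPM in HFSC and 2.18 and 0.625 CPM in EpdSC (log2 fold change -4.82, SE 0.59). Fstl1 was at 53.6 and 82.8 CPM in HFSC and 0.118 and 0.526 CPM in EpdSC (log2 fold change -7.75, SE 0.45). No library of EpdSC reached the level of an HFSC library for any of them.

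Receptors and targets of the pathway also differed. Bmpr1b (log2 fold change 3.78, SE 0.55), Tgfbr2 (log2 fold change 1.11, SE 0.17) and Tgfbr3 (log2 fold change 2.10, SE 0.14) were higher in EpdSC, and Bmpr2 was not called (log2 fold change 0.37, SE 0.15). The ID genes, targets of BMP signals that block basic helix-loop-helix factors, were all higher in HFSC. Id2 was at 204 and 190.2 CPM in HFSC and 6.18 and 7.80 CPM in EpdSC (log2 fold change -4.82, SE 0.35, adjusted p = 1.29e-06 in edgeR), Id1 at 86.6 ± 13.6 CPM in HFSC and 10.8 ± 0.159 CPM in EpdSC, Id3 at 136 ± 15.3 CPM in HFSC and 26.7 ± 1.45 CPM in EpdSC and Id4 at 51.1 ± 6.02 CPM in HFSC and 8.70 ± 0.951 CPM in EpdSC. The inhibitory Smads were higher in HFSC as well, Smad6 (log2 fold change -4.23, SE 0.47) and Smad7 (log2 fold change -2.27, SE 0.24), with the pseudoreceptor Bambi (log2 fold change -3.93, SE 0.31). Smad9, a BMP-regulated Smad, was at 49.5 ± 10.2 CPM in HFSC and 0.486 ± 0.522 CPM in EpdSC. Ltbp1 and Ltbp3, which store latent TGF-beta in the matrix, were 15.0-fold and 5.15-fold higher in HFSC.

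Of 14 hedgehog pathway genes tested, 9 were called higher in HFSC and the other 5 were not called (median -1.77). Shh did not pass the filter on low counts. Gli1, a transcription factor and target of the pathway, was at 64.7 and 78.4 CPM in HFSC and 1.29 and 0.790 CPM in EpdSC (log2 fold change -6.08, SE 0.42, adjusted p = 8.51e-07 in edgeR). Gli2, which transmits the signal, was at 149 and 133 CPM in HFSC and 2.65 and 1.51 CPM in EpdSC (log2 fold change -6.07, SE 0.29, adjusted p = 6.38e-08 in edgeR). The coreceptors Boc (619.9 ± 171 CPM in HFSC and 71.1 ± 8.66 CPM in EpdSC), Cdon (242 ± 36.6 CPM in HFSC and 96.2 ± 5.16 CPM in EpdSC) and Gas1 (383 ± 68.0 CPM in HFSC and 108 ± 5.88 CPM in EpdSC) and the receptor Ptch1 (128 ± 17.4 CPM in HFSC and 30.2 ± 5.66 CPM in EpdSC) were present in both populations with an excess in HFSC. Hhip, which binds the ligand and is induced by it, was at 11.8 ± 2.52 CPM in HFSC and 0.190 ± 0.103 CPM in EpdSC. Gli3 was higher in HFSC by a smaller fold (log2 fold change -1.51, SE 0.14), and the inhibitor Sufu was not called (log2 fold change -0.50, SE 0.18).

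Notch pathway genes were called 7 times in each direction of 18. Dll1, a ligand, was at 106 and 177 CPM in EpdSC and 15.5 and 34.1 CPM in HFSC (log2 fold change 2.51, SE 0.33, adjusted p = 0.000132 in edgeR). Notch3, a receptor, was at 81.5 and 76.6 CPM in EpdSC and 6.42 and 13.6 CPM in HFSC (log2 fold change 2.99, SE 0.28, adjusted p = 1.01e-05 in edgeR). Notch1 (log2 fold change 1.28, SE 0.18), Jag2 (log2 fold change 1.09, SE 0.13) and the target Hes1 (log2 fold change 1.27, SE 0.21) were also higher in EpdSC. Jag1 (log2 fold change -1.34, SE 0.13), the coactivator Maml2 (log2 fold change -2.03, SE 0.18) and the target Hey1 (log2 fold change -3.19, SE 0.59) were higher in HFSC, as was the transcription factor of the pathway, Rbpj (log2 fold change -1.10, SE 0.19). Notch2 was not called (log2 fold change 0.32, SE 0.13).

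Of 32 genes of FGF and ErbB signalling 8 were called higher in EpdSC and 6 in HFSC. The ErbB ligand Epgn, epigen, was at 99.9 and 42.7 CPM in EpdSC and 0.632 and 1.14 CPM in HFSC (log2 fold change 6.35, SE 0.49, adjusted p = 2.23e-06 in edgeR). Erbb3 (log2 fold change 1.78, SE 0.17) and Erbb2 (log2 fold change 1.05, SE 0.14) were higher in EpdSC, and Egfr was higher in HFSC (774 ± 50.8 CPM in HFSC and 495 ± 35.8 CPM in EpdSC, log2 fold change -0.65, SE 0.14), where the call was lost without EpdSC replicate 1 (-0.57). Fgf1 was at 161 and 194 CPM in HFSC and 1.68 and 1.94 CPM in EpdSC (log2 fold change -6.62, SE 0.20, adjusted p = 4.62e-09 in edgeR). Fgf18, a signal linked to bulge rest, was at 15.2 and 13.5 CPM in HFSC and 0 and 0.296 CPM in EpdSC (log2 fold change -6.63, SE 0.70). Fgf18 had no count in EpdSC replicate 1. Fgfr1 was at 534 and 542 CPM in HFSC and 27.3 and 32.0 CPM in EpdSC (log2 fold change -4.18, SE 0.23), higher in HFSC, whereas Fgfr2 (390.4 ± 47.5 CPM in HFSC and 896 ± 77.4 CPM in EpdSC) and Fgfr3 (266 ± 27.2 CPM in HFSC and 440.5 ± 26.7 CPM in EpdSC) were higher in EpdSC.

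**Figure D4:**
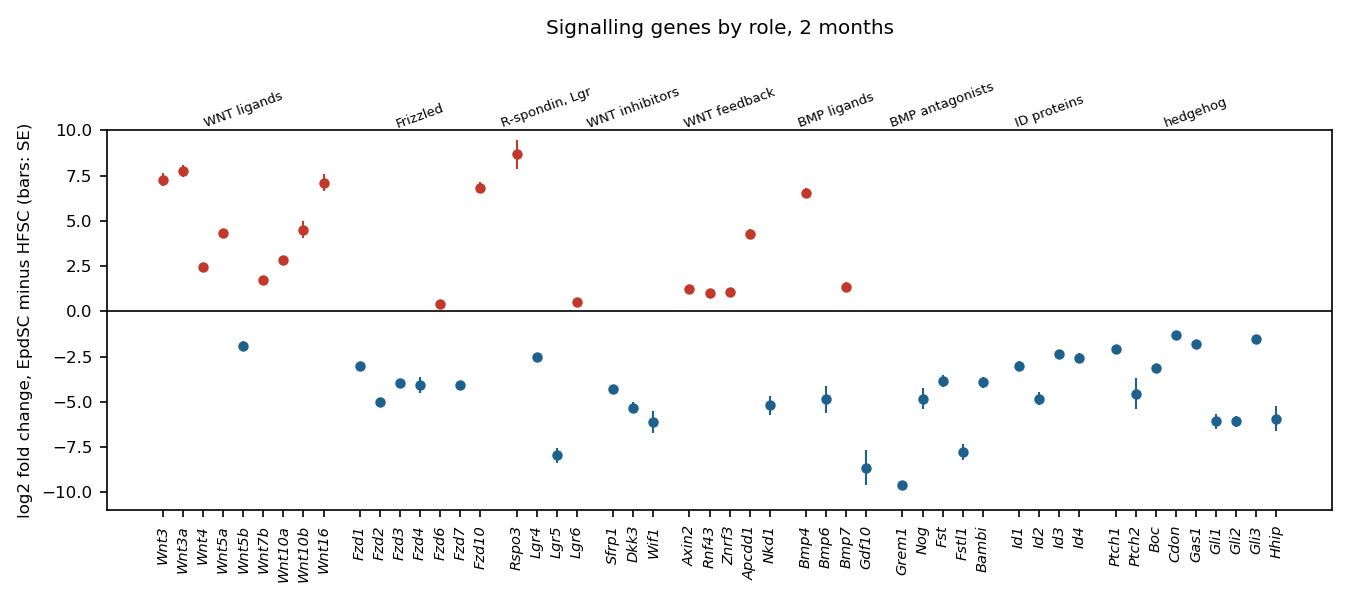
Log2 fold change of EpdSC minus HFSC for genes of the WNT, BMP and hedgehog pathways grouped by role, with bars of 1 SE. Red points above 0 are higher in EpdSC and blue points below 0 higher in HFSC, and all genes drawn were called. Of the genes drawn, WNT ligands other than Wnt5b lie above 0, from Wnt7b at 1.70 to Wnt3a at 7.74. The BMP antagonists, ID proteins and hedgehog genes drawn lie below 0. The genes drawn are a choice from the called members of these pathways. Bmp3, which also opposes BMP signals and was called higher in EpdSC, is not drawn.

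Guidance and neurotrophic factors were called in both directions. Among 38 semaphorins, plexins, ephrins and Eph receptors, 13 were higher in EpdSC and 15 in HFSC. Sema3e was at 544 and 458 CPM in HFSC and 14.4 and 8.59 CPM in EpdSC (log2 fold change -5.45, SE 0.37, adjusted p = 6.95e-07 in edgeR). The plexin Plxna2 was at 724 and 642 CPM in HFSC and 95.9 and 93.4 CPM in EpdSC (log2 fold change -2.85, SE 0.21, adjusted p = 1.25e-06 in edgeR), whereas Sema3d was at 234 and 268 CPM in EpdSC and 8.29 and 9.09 CPM in HFSC (log2 fold change 4.85, SE 0.22). Sema3c was abundant in both (406 ± 32.9 CPM in HFSC and 957 ± 16.9 CPM in EpdSC). Among 23 slits, netrins, neurotrophins and their receptors, 6 were higher in EpdSC and 11 in HFSC. Of the GDNF system, the ligand Gdnf was higher in EpdSC (38.9 ± 2.20 CPM in EpdSC and 6.02 ± 0.719 CPM in HFSC) while its receptors Gfra1 and Ret (5.68 ± 0.0830 CPM in HFSC and 0.397 ± 0.229 CPM in EpdSC) were higher in HFSC. Of the BDNF system, the ligand Bdnf was higher in HFSC (21.7 ± 1.82 CPM in HFSC and 0.295 ± 0.00136 CPM in EpdSC) and its receptor Ntrk2 higher in EpdSC (85.9 ± 40.4 CPM in EpdSC and 5.34 ± 1.29 CPM in HFSC). The slit receptor Robo1 was higher in EpdSC (log2 fold change 4.14, SE 0.18) and Robo2 in HFSC (log2 fold change -3.64, SE 0.23).

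The extracellular matrix differed widely, with 21 of 46 genes of basement membrane and matrix called higher in HFSC, 6 higher in EpdSC and a median of -0.87. Besides Postn, Col8a2, a short-chain collagen, was at 466 and 518 CPM in HFSC and 0.794 and 1.38 CPM in EpdSC (log2 fold change -8.83, SE 0.43, adjusted p = 6.71e-08 in edgeR). Fbln1, fibulin-1, was at 193 and 225 CPM in HFSC and 4.29 and 4.34 CPM in EpdSC (log2 fold change -5.59, SE 0.31, adjusted p = 1.47e-07 in edgeR). Tnc, tenascin C, was at 478 ± 189 CPM in HFSC and 7.37 ± 0.648 CPM in EpdSC. Npnt, nephronectin, which is known to anchor arrector pili muscle at the bulge, was at 164 and 329 CPM in HFSC and 24.6 and 32.1 CPM in EpdSC (log2 fold change -3.12, SE 0.29), and its partner Egfl6 at 114 ± 0.554 CPM in HFSC and 18.2 ± 1.84 CPM in EpdSC. The basement membrane proteins Sparc (log2 fold change -2.85, SE 0.16), Hspg2, perlecan (log2 fold change -2.67, SE 0.16), and Col18a1 (log2 fold change -2.37, SE 0.19) were higher in HFSC. The collagen IV chains divided by their pairs on the chromosome. Col4a1 (log2 fold change -1.72, SE 0.20) and Col4a2 (log2 fold change -1.11, SE 0.22) and Col4a3 (log2 fold change -4.74, SE 0.43) and Col4a4 (log2 fold change -4.48, SE 0.37) were higher in HFSC, and Col4a5 (log2 fold change 0.61, SE 0.18) and Col4a6 (log2 fold change 1.27, SE 0.18) higher in EpdSC, where, for Col4a5, the call was lost without HFSC replicate 1 (0.50), EpdSC replicate 1 (0.60) or EpdSC replicate 2 (0.64). The laminin chain Lama1 was at 106 and 208 CPM in EpdSC and 2.10 and 4.52 CPM in HFSC (log2 fold change 5.58, SE 0.42). Of 10 fibroblast and dermal papilla markers tested, 3 were called higher in HFSC, Col1a1 (13.3 ± 4.93 CPM in HFSC and 0.596 ± 0.552 CPM in EpdSC), Col1a2 (52.6 ± 12.6 CPM in HFSC and 0.726 ± 0.694 CPM in EpdSC) and Crabp1 (2.29 ± 0.291 CPM in HFSC and 0.0788 ± 0.0282 CPM in EpdSC), and 1 higher in EpdSC, Rspo3. The markers summed to 61.1 and 83.6 CPM in HFSC, with Dpt at 0 in both libraries, and to 27.2 and 58.1 CPM in EpdSC, where Rspo3 was most of the sum. Their part in the matrix result was not tested.

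Of 17 integrin and hemidesmosome genes, 5 were called higher in HFSC and 3, Itga6, Itga3 (log2 fold change 0.74, SE 0.19) and Plec (log2 fold change 0.54, SE 0.14), higher in EpdSC. The 5 and 3 were 29.4% and 17.6% of the list, beside 13.1% and 13.0% of all genes tested. For Itga3 the call was lost without EpdSC replicate 1 (0.43), and for Plec the call was lost without HFSC replicate 2 (0.49) or EpdSC replicate 1 (0.44). Itgb6, which pairs with αv to activate TGF-beta, was at 269 and 268 CPM in HFSC and 43.3 and 34.4 CPM in EpdSC (log2 fold change -2.79, SE 0.16, adjusted p = 2.22e-07 in edgeR). Itgb8, another such chain, was at 133 and 151 CPM in HFSC and 7.59 and 7.37 CPM in EpdSC (log2 fold change -4.24, SE 0.25, adjusted p = 2.22e-07 in edgeR). Itgb4 and Dst (log2 fold change -0.30, SE 0.16) were not called. Junction genes were higher in EpdSC for 13 of 33 and in HFSC for 4, with a median of 0.36. The 4 became 2 without HFSC replicate 1, without either EpdSC replicate or without either 24-month HFSC replicate. Besides Dsg1a and Pkp1, the desmosomal cadherin Dsg2 (130.3 ± 9.82 CPM in EpdSC and 24.4 ± 0.980 CPM in HFSC) and the gap junction protein Gja1 (384 ± 60.1 CPM in EpdSC and 143 ± 48.1 CPM in HFSC) were higher in EpdSC. Dsg3, a basal desmosomal cadherin (761 ± 82.8 CPM in HFSC and 484 ± 59.2 CPM in EpdSC, log2 fold change -0.65, SE 0.15), and Cldn8 (27.9 ± 13.3 CPM in HFSC and 4.48 ± 1.30 CPM in EpdSC) were higher in HFSC. For Dsg3 the call was lost without EpdSC replicate 2 (-0.52). Pkp3, another plaque protein, was not called (log2 fold change 0.40, SE 0.14).

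Proteases and inhibitors were called in both directions, 10 higher in EpdSC and 8 in HFSC of 30. Serpinb2 was at 1046 and 1032 CPM in EpdSC and 81.7 and 18.9 CPM in HFSC (log2 fold change 4.37, SE 0.54, adjusted p = 8.09e-05 in edgeR) and Serpinb7 at 70.4 and 94.7 CPM in EpdSC and 0.399 and 3.66 CPM in HFSC (log2 fold change 5.39, SE 0.57, adjusted p = 2.47e-05 in edgeR). Plau, urokinase, was at 44.9 and 38.3 CPM in EpdSC and 5.06 and 4.45 CPM in HFSC (log2 fold change 3.13, SE 0.23). Timp2, an inhibitor of metalloproteases, was the clearest case in HFSC, at 404 and 524 CPM in HFSC and 5.24 and 6.81 CPM in EpdSC (log2 fold change -6.27, SE 0.22).

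Immune genes were higher in EpdSC in several lists. Of 22 genes of MHC and antigen presentation 18 were called higher in EpdSC and the other 4 were not called, with a median of 2.50. B2m, which encodes the invariant class I chain, was at 282 and 307 CPM in HFSC and 1508 and 1481 CPM in EpdSC (log2 fold change 2.34, SE 0.26, adjusted p = 4.15e-05 in edgeR). H2-K1, a classical class I heavy chain, was at 172 and 205 CPM in HFSC and 1291 and 1342 CPM in EpdSC (log2 fold change 2.80, SE 0.31, adjusted p = 4e-05 in edgeR). Nlrc5, which switches on class I genes, was at 19.9 and 20.6 CPM in HFSC and 263 and 234 CPM in EpdSC (log2 fold change 3.62, SE 0.22). The immunoproteasome subunit Psmb8 was at 3.63 and 4.60 CPM in HFSC and 39.0 and 42.1 CPM in EpdSC (log2 fold change 3.30, SE 0.31). All 4 were higher in each EpdSC library than in either HFSC library. The class I genes are near-identical in parts, so H2-Q4, H2-Q6 and H2-Q7, 5.76-fold, 7.71-fold and 12.0-fold higher in EpdSC, are uncertain as single genes. Class II genes were low but also higher in EpdSC, with H2-Ab1 at 5.98 ± 0.318 CPM in EpdSC and 0.763 ± 0.0898 CPM in HFSC.

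Markers of Langerhans and myeloid cells moved with these class II genes in part. Cd207, the langerin gene, was at 0.166 and 0.0393 CPM in HFSC and 0.824 and 0.987 CPM in EpdSC, and the call was lost without the 24-month EpdSC replicate 1 (3.05), the 24-month EpdSC replicate 2 (3.09), HFSC replicate 2 (2.41), EpdSC replicate 1 (3.19) or EpdSC replicate 2 (2.94). It was also lost in a fit of only the 4 libraries of 2-month mice (edgeR adjusted p = 0.0596) and with a replicate block (0.0588). Ptprc, the pan-leukocyte gene, was at 0.766 and 0.983 CPM in HFSC and 0.471 and 0.954 CPM in EpdSC, and Lyz2 was at 0 in both HFSC libraries. The 12 markers, which include Epcam (158 ± 73.0 CPM in HFSC and 124 ± 50.3 CPM in EpdSC) and 2 class II genes, summed to 218 and 118 CPM in HFSC and 184 and 113 CPM in EpdSC. Of the 11 tested, 4 were called higher in EpdSC, Cd207, H2-Ab1, Cd74 and Tyrobp (0.0499 ± 0.0706 CPM in HFSC and 0.995 ± 0.0347 CPM in EpdSC), and 1 higher in HFSC, Cd68 (4.31 ± 0.360 CPM in HFSC and 1.23 ± 0.163 CPM in EpdSC). That 1 was not called without EpdSC replicate 1. With the replicate block Tyrobp was not called (edgeR adjusted p = 0.0507). The 4 became 2 without HFSC replicate 2 or without either EpdSC replicate. The part of such cells in the class II result was not tested.

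Of 31 interferon response genes 11 were called higher in EpdSC and 1, Gbp7 (log2 fold change -1.71, SE 0.33), higher in HFSC, with a median of 0.61. Without EpdSC replicate 1, 6 were called higher in EpdSC, and without EpdSC replicate 2 or the 24-month HFSC replicate 2, 2 were called higher in HFSC. Ifngr1, the ligand-binding chain of the interferon gamma receptor, was at 335 and 395 CPM in EpdSC and 18.2 and 30.7 CPM in HFSC (log2 fold change 3.90, SE 0.24, adjusted p = 2.83e-07 in edgeR). The GTPase Gbp2 (21.2 ± 1.04 CPM in EpdSC and 4.30 ± 0.846 CPM in HFSC) and the transcription factor Irf1 (27.2 ± 2.92 CPM in EpdSC and 8.00 ± 0.461 CPM in HFSC) were higher in EpdSC.

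Cytokine, chemokine and NF-kB genes were called higher in EpdSC for 17 of 32 and in HFSC for 2, with a median of 1.20. The 2 were Cxcl12 and Cxcl14, and without EpdSC replicate 2 only 1 of them was called. Il33 (ENSMUSG00000024810.16, chromosome 19, 29925113 to 29960718), an alarmin stored in the nucleus, was at 264 and 222 CPM in EpdSC and 3.03 and 3.30 CPM in HFSC (log2 fold change 6.26, SE 0.24, adjusted p = 1.92e-08 in edgeR). Tnfrsf19, also known as Troy, was at 722 and 629.9 CPM in EpdSC and 4.73 and 10.5 CPM in HFSC (log2 fold change 6.48, SE 0.33, adjusted p = 8.24e-08 in edgeR). Il34, a ligand of the CSF1 receptor that sustains Langerhans cells, was at 86.5 and 87.9 CPM in EpdSC and 7.59 and 9.80 CPM in HFSC (log2 fold change 3.33, SE 0.19). The interleukin-1 receptor antagonist Il1rn was higher in EpdSC, at 124 ± 2.76 CPM in EpdSC and 2.11 ± 0.351 CPM in HFSC. So was the decoy receptor Il1r2, at 172 ± 18.4 CPM in EpdSC and 2.17 ± 2.50 CPM in HFSC. Nfkbiz, an IκB protein of epidermal inflammation (log2 fold change 3.57, SE 0.17), and Tnfaip3, an inhibitor of NF-kB (log2 fold change 2.06, SE 0.17), were higher too. Ccl20, the ligand of CCR6, had no count in HFSC and was at least 44-fold higher in EpdSC, where it was at 2.35 ± 0.583 CPM. Cxcl12, a chemokine that holds progenitor cells in niches, was higher in HFSC, at 133 and 85.5 CPM in HFSC and 6.38 and 8.75 CPM in EpdSC (log2 fold change -3.85, SE 0.30), as was Cxcl14.

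Skint genes encode membrane proteins of keratinocytes, of which Skint1 is needed for the development of epidermal γδ T cells. All 11 were called, 10 higher in EpdSC and Skint4 higher in HFSC, with a median of 2.55. Skint1 was at 143 and 154 CPM in EpdSC and 1.03 and 2.16 CPM in HFSC (log2 fold change 6.56, SE 0.30, adjusted p = 4.9e-08 in edgeR). Skint7 was at 95.8 and 134 CPM in EpdSC and 0.632 and 1.34 CPM in HFSC (log2 fold change 6.89, SE 0.33, adjusted p = 6.38e-08 in edgeR). Skint4 was at 89.2 and 104 CPM in HFSC and 26.9 and 35.4 CPM in EpdSC (log2 fold change -1.63, SE 0.19). The family is closely related in sequence, so reads may have been shared between members. T cell markers summed to 6.08 and 4.09 CPM in HFSC and 46.7 and 44.6 CPM in EpdSC. Most of that sum was Thy1 (43.7 ± 2.32 CPM in EpdSC and 3.54 ± 1.11 CPM in HFSC), the 1 of 7 tested markers that was called. Cd3e was at 0.233 and 0.0787 CPM in HFSC and 0.0882 and 0.592 CPM in EpdSC and Tcrg-C1 at 0 in both HFSC libraries. The part of T cells in any result was not tested. Among antimicrobial and innate defence genes 5 of 19 were higher in EpdSC and 2 in HFSC. The β-defensin Defb1 (21.9 ± 14.0 CPM in EpdSC and 0.415 ± 0.304 CPM in HFSC) and the inflammatory caspase Casp4 (20.8 ± 5.52 CPM in EpdSC and 0.463 ± 0.0985 CPM in HFSC) were higher in EpdSC, and the receptors Tlr2 (4.93 ± 0.848 CPM in HFSC and 0.966 ± 0.0763 CPM in EpdSC) and Tlr4 (5.43 ± 2.34 CPM in HFSC and 0.495 ± 0.0487 CPM in EpdSC) in HFSC.

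Immediate early genes, which are induced within minutes by growth factors or stress, cell isolation included, were higher in EpdSC for 19 of 27 and in HFSC for 3, with a median of 1.80. Fos was at 235 and 94.0 CPM in HFSC and 2513 and 2068 CPM in EpdSC (log2 fold change 3.80, SE 0.35, adjusted p = 8.82e-06 in edgeR). Junb was at 82.7 and 62.1 CPM in HFSC and 956 and 755 CPM in EpdSC (log2 fold change 3.56, SE 0.19, adjusted p = 1.42e-07 in edgeR) and Zfp36 at 68.0 and 45.2 CPM in HFSC and 852 and 654 CPM in EpdSC (log2 fold change 3.73, SE 0.24). Egr1 was at 122 and 55.9 CPM in HFSC and 745 and 599 CPM in EpdSC (log2 fold change 2.92, SE 0.32). In these 4 genes each EpdSC library was above both HFSC libraries. Ier3 (45.9 ± 12.8 CPM in HFSC and 12.1 ± 6.78 CPM in EpdSC), Maff (30.3 ± 7.27 CPM in HFSC and 10.1 ± 0.760 CPM in EpdSC) and Nr4a2 (9.11 ± 4.87 CPM in HFSC and 3.68 ± 1.25 CPM in EpdSC) were higher in HFSC, where, for Nr4a2, the call was lost without HFSC replicate 1 (-0.59) or EpdSC replicate 2 (-0.98). Both populations passed through the same trypsin digest, and the part of cell isolation in this difference was not tested.

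Cell cycle genes were higher in EpdSC for 15 of 30 and in HFSC for 1, with a median of 1.02. Without EpdSC replicate 1, 3 were called higher in EpdSC, and without HFSC replicate 1, 7. Mki67, the proliferation antigen Ki-67, was at 160.2 and 156 CPM in HFSC and 500.1 and 316 CPM in EpdSC (log2 fold change 1.37, SE 0.33, adjusted p = 0.00975 in edgeR). The mitotic cyclin Ccnb1 was at 9.79 and 12.9 CPM in HFSC and 54.6 and 25.2 CPM in EpdSC (log2 fold change 1.82, SE 0.41, adjusted p = 0.00638 in edgeR). For Mki67 the call was lost without EpdSC replicate 1 (1.01), and for Ccnb1 the call was lost without EpdSC replicate 1 (1.16). Other mitotic genes were 3.76-fold (Hmmr) and 3.42-fold (Cdc20) higher in EpdSC. Rrm2, a subunit of ribonucleotide reductase, was higher in HFSC (log2 fold change -0.87, SE 0.27), where the call was lost without HFSC replicate 1 (-0.61) or EpdSC replicate 2 (-0.65). The replication gene Pcna was not called (log2 fold change 0.42, SE 0.22). Among 20 inhibitors of the cycle and genes of quiescence, 7 were higher in EpdSC and 5 in HFSC. Cdkn1a, the p21 inhibitor, was higher in EpdSC (43.5 ± 1.75 CPM in EpdSC and 7.37 ± 2.86 CPM in HFSC), and Cdkn1b, p27 (161 ± 15.0 CPM in HFSC and 87.9 ± 5.22 CPM in EpdSC), and Gas1 were higher in HFSC.

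Ribosomal protein genes differed in 1 direction, by log2 fold changes of 0.207 to 1.79. Of 44 tested, 28 were called higher in EpdSC and 16 were not called, all 44 fold changes were positive, and the median was 0.51. Without HFSC replicate 1, 13 were called, and without EpdSC replicate 1, 11. Rplp0 was at 597 and 719 CPM in HFSC and 1431 and 1417 CPM in EpdSC (log2 fold change 1.11, SE 0.16, adjusted p = 0.000223 in edgeR). Rps9 was at 343 and 407 CPM in HFSC and 654 and 640.3 CPM in EpdSC (log2 fold change 0.79, SE 0.15, adjusted p = 0.00172 in edgeR). Nuclear genes of oxidative phosphorylation were called higher in EpdSC for 6 of 35 (median 0.32), which became 1 without HFSC replicate 1 or EpdSC replicate 1 and 10 and 13 without the 24-month HFSC replicates 1 and 2, and 1 of 9 mitochondrially encoded genes, mt-Rnr1, was called higher in HFSC. The 6 of 35 were 17.1% of that list, beside 13.0% of all genes tested called higher in EpdSC. The 1 of 9 mitochondrially encoded genes was 11.1%, beside 13.1% of all genes tested called higher in HFSC. With mitochondrially encoded genes left out before scaling, 2921 genes were called higher in EpdSC and 2748 in HFSC. Glycolysis genes were higher in EpdSC for 9 of 25 and in HFSC for 5, and these were 5 and 3 without HFSC replicate 2. Without EpdSC replicate 1, 5 were called higher in EpdSC. The glucose transporter Slc2a1 was at 42.6 and 49.1 CPM in HFSC and 216 and 162 CPM in EpdSC (log2 fold change 2.04, SE 0.17), and the lactate exporter Slc16a3 was 10.0-fold higher in EpdSC.

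Lipid genes were called in both directions. Of 30 genes for making cholesterol and fatty acids 11 were higher in EpdSC and 7 in HFSC, and without HFSC replicate 1 or EpdSC replicate 1, 7 and 5 were higher in EpdSC. Hmgcs1, an early enzyme of the sterol pathway (412 ± 26.7 CPM in EpdSC and 113 ± 6.53 CPM in HFSC), and Elovl1, which lengthens fatty acids (75.0 ± 7.77 CPM in EpdSC and 40.4 ± 2.25 CPM in HFSC), were higher in EpdSC. Elovl5 (86.7 ± 6.90 CPM in HFSC and 17.8 ± 0.00131 CPM in EpdSC) and the desaturase Fads1 (17.0 ± 1.41 CPM in HFSC and 2.46 ± 0.239 CPM in EpdSC) were higher in HFSC. The 16 sebaceous gland genes tested had a median log2 fold change of -1.05, and 4 of them had positive values. Of 16 sebaceous gland genes 4 were higher in EpdSC and 5 in HFSC, 3 of which were called in HFSC without EpdSC replicate 1 or HFSC replicate 2, and the lipid enzymes Scd1 (250.4 ± 45.7 CPM in EpdSC and 86.1 ± 16.8 CPM in HFSC) and Acsbg1 (253 ± 100.4 CPM in EpdSC and 35.7 ± 5.03 CPM in HFSC) were among the first. Of 31 detoxifying and redox enzymes 12 were higher in HFSC and 5 in EpdSC, with a median of -0.63, and without EpdSC replicate 1 or the 24-month HFSC replicate 2, 2 and 8 were higher in EpdSC. The cytochrome Cyp1b1 was at 73.7 and 81.2 CPM in HFSC and 2.35 and 2.70 CPM in EpdSC (log2 fold change -4.94, SE 0.29, adjusted p = 2.36e-07 in edgeR). The glutathione-synthesis gene Gclm (37.0 ± 6.24 CPM in HFSC and 10.1 ± 2.49 CPM in EpdSC) and the quinone reductase Nqo1 (28.3 ± 2.11 CPM in HFSC and 8.58 ± 1.39 CPM in EpdSC) were also higher in HFSC, and the aldehyde dehydrogenase Aldh3b2 was higher in EpdSC (55.0 ± 5.64 CPM in EpdSC and 5.39 ± 3.34 CPM in HFSC). Of the 31 enzymes, the 12 and 5 called were 38.7% and 16.1%, beside 13.1% and 13.0% of all genes tested.

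Positional homeobox genes were mostly higher in HFSC, 23 of 43 tested against 1, Meis2 (21.1 ± 5.27 CPM in EpdSC and 2.55 ± 0.402 CPM in HFSC), with a median of -1.61. Without the 24-month HFSC replicate 2, 2 were called higher in EpdSC. Hoxc13, a regulator of hair keratins, was at 29.0 ± 3.82 CPM in HFSC and 0.497 ± 0.00466 CPM in EpdSC (log2 fold change -5.85, SE 0.33, adjusted p = 1.76e-07 in edgeR). Hoxc8 was at 42.2 and 37.0 CPM in HFSC and 8.09 and 6.88 CPM in EpdSC (log2 fold change -2.40, SE 0.18, adjusted p = 1.42e-06 in edgeR). The cofactor Pbx3 was at 44.9 and 47.0 CPM in HFSC and 6.21 and 7.73 CPM in EpdSC (log2 fold change -2.72, SE 0.18). The Hox genes of the B cluster that were called, such as Hoxb9 (29.5 ± 11.8 CPM in HFSC and 2.90 ± 0.602 CPM in EpdSC) and Hoxb6 (30.1 ± 1.92 CPM in HFSC and 7.93 ± 1.40 CPM in EpdSC), were detected in both populations. Hoxa7 was not called (log2 fold change -0.42, SE 0.22).

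Imprinted genes, expressed from 1 parental allele, were called higher in HFSC for 12 of 26, the other 14 not called, with a median of -1.06. Without HFSC replicate 1, 7 were called. Peg3 was at 109 and 113 CPM in HFSC and 4.91 and 4.28 CPM in EpdSC (log2 fold change -4.59, SE 0.25, adjusted p = 1.55e-07 in edgeR) and Sgce at 26.2 and 26.5 CPM in HFSC and 0.176 and 0.888 CPM in EpdSC (log2 fold change -5.65, SE 0.70, adjusted p = 8.54e-05 in edgeR). Igf2r was at 208 and 166 CPM in HFSC and 65.2 and 63.5 CPM in EpdSC (log2 fold change -1.54, SE 0.15). All 3 were higher in both HFSC libraries. Gnas (log2 fold change 0.16, SE 0.23) and Ube3a (log2 fold change 0.14, SE 0.14) were not called.

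Potassium channel genes were called 5 times in EpdSC and 6 times in HFSC of 23. The inward rectifiers Kcnj16 (32.1 and 40.0 CPM in EpdSC and 0.666 and 0.590 CPM in HFSC) and Kcnj2 (149.6 ± 11.9 CPM in EpdSC and 21.4 ± 5.25 CPM in HFSC) were higher in EpdSC, and the calcium-activated channel Kcnma1 (53.9 ± 14.2 CPM in HFSC and 0.904 ± 0.489 CPM in EpdSC) and the background channel Kcnk2 (63.2 ± 3.09 CPM in HFSC and 0.661 ± 0.228 CPM in EpdSC) in HFSC. Of 19 circadian clock genes, 3 were higher in EpdSC and 5 in HFSC, and without EpdSC replicate 1, 3 were higher in HFSC. Nfil3 was at 44.4 and 73.0 CPM in HFSC and 4.47 and 2.01 CPM in EpdSC (log2 fold change -4.17, SE 0.39, adjusted p = 9.02e-06 in edgeR), and its counterpart at the same DNA element, Hlf, at 98.8 and 109.7 CPM in EpdSC and 8.82 and 22.1 CPM in HFSC (log2 fold change 2.76, SE 0.38, adjusted p = 0.000215 in edgeR). Bhlhe40 was higher in EpdSC (75.2 ± 14.3 CPM in EpdSC and 11.5 ± 1.25 CPM in HFSC). The 3 and 5 clock genes called were 15.8% and 26.3% of the 19, beside 13.0% and 13.1% of all genes tested.

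Of 25 genes of retinoid, vitamin D and steroid signalling, 8 were called higher in HFSC and 4 higher in EpdSC, of which 2 were called without EpdSC replicate 1. Vdr, the vitamin D receptor needed for hair cycling, was at 480.3 and 405 CPM in HFSC and 114 and 105 CPM in EpdSC (log2 fold change -2.02, SE 0.15, adjusted p = 1.81e-06 in edgeR). Nr3c1, the glucocorticoid receptor, was at 521 and 579.6 CPM in HFSC and 223 and 241 CPM in EpdSC (log2 fold change -1.25, SE 0.14, adjusted p = 3.49e-05 in edgeR). Cyp26b1, which degrades retinoic acid, was at 94.8 and 97.0 CPM in HFSC and 4.21 and 1.02 CPM in EpdSC (log2 fold change -5.18, SE 0.52). All 3 were higher in both HFSC libraries. The oestrogen receptor Esr1 was higher in EpdSC (11.2 ± 1.55 CPM in EpdSC and 2.20 ± 1.18 CPM in HFSC).

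Markers of other cell types were summed in each library. Melanocyte markers summed to 214 and 260 CPM in HFSC and 12.3 and 18.5 CPM in EpdSC, and 5 of 9 tested were called higher in HFSC. Mitf, the melanocyte master factor, made up most of that sum (217 ± 31.4 CPM in HFSC and 11.7 ± 4.49 CPM in EpdSC), and Dct, a pigment enzyme, was at 9.93 ± 1.81 CPM in HFSC and 0.380 ± 0.212 CPM in EpdSC. Pericyte markers summed to 782 and 752 CPM in HFSC and 186 and 167 CPM in EpdSC. In HFSC nearly all of it was Cspg4 (754 ± 26.8 CPM in HFSC and 91.3 ± 11.8 CPM in EpdSC), and in EpdSC most of the rest was Notch3. Of 9 tested, Cspg4 was the 1 called higher in HFSC, and Notch3 and Acta2, smooth muscle actin (0.366 ± 0.0941 CPM in HFSC and 3.61 ± 0.571 CPM in EpdSC), were the 2 called higher in EpdSC. Endothelial markers summed to at most 10.7 CPM and Merkel cell markers to at most 7.15 CPM in any library. Schwann cell markers summed to at most 39.2 CPM in HFSC and at most 103 CPM in EpdSC, mostly Mbp (97.8 ± 0.355 CPM in EpdSC and 24.1 ± 6.85 CPM in HFSC), while Sox10 (1.94 ± 0.866 CPM in HFSC and 0.158 ± 0.0564 CPM in EpdSC) was higher in HFSC. Hair shaft and inner root sheath genes summed to 50.8 and 85.8 CPM in HFSC and 22.8 and 43.4 CPM in EpdSC. Sebaceous gland genes summed to 442 and 518 CPM in HFSC and 1040 and 767 CPM in EpdSC. Scd1 and Acsbg1, both called higher in EpdSC, made up much of the EpdSC sum. The median log2 fold change of the 16 sebaceous gland genes was -1.05, and 4 of them had positive values. The part of such cells in the differences between the populations was not tested.

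The same sorts at 24 months gave 2628 genes higher in EpdSC (12.2%) and 2552 higher in HFSC (11.9%). Of the 2788 genes higher in EpdSC at 2 months, 2765 had the same sign at 24 months and 2178 were called in the same direction (78.1%). Of the 2812 genes higher in HFSC, 2787 had the same sign and 2108 were called. Median fold changes of these genes were 1.00 at 24 months beside 1.14 at 2 months, and -1.59 beside -1.90. The genes were chosen for their values at 2 months, in a fit whose filter and estimate of spread also drew on the libraries at 24 months. At 24 months Cd34 was at 1088 and 1194 CPM in HFSC and 0.340 and 0.586 CPM in EpdSC, Grem1 at 867 and 815 CPM in HFSC and 1.14 and 1.37 CPM in EpdSC, Lhx2 at 399 and 355 CPM in HFSC and 0.835 and 2.21 CPM in EpdSC and Wnt3 at 3.62 and 1.61 CPM in HFSC and 145 and 163 CPM in EpdSC. The populations stood apart for these 4 genes at both ages, which for Cd34 was set by the sort. Timp3, an inhibitor of metalloproteases, was the 1 gene called in opposite directions, with a log2 fold change of 0.71, SE 0.21 at 2 months, where it was higher in EpdSC, and of -0.96, SE 0.21, adjusted p = 0.00552 in edgeR at 24 months, at 88.1 ± 26.7 CPM in HFSC and 45.2 ± 6.79 CPM in EpdSC. At 2 months the call was lost without HFSC replicate 2 (0.58), EpdSC replicate 1 (0.79) or EpdSC replicate 2 (0.65). Its difference between the ages was not called in edgeR's test (adjusted p = 0.168). In that test of the difference itself, Ly6e was the 1 gene called of 21464 (0.00466%). Without the 24-month EpdSC replicate 2 its adjusted p was 0.0949 and no gene was called, beside 1002 genes at an unadjusted p under 0.05 in edgeR, and DESeq2 called 95. Ly6e was at 9.35 and 8.81 CPM in HFSC and 100.4 and 81.3 CPM in EpdSC at 2 months and 62.5 and 91.9 CPM in HFSC and 122 and 116 CPM in EpdSC at 24 months.

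Open chromatin was measured in the same sorts at 2 months by ATAC-seq, which counts insertions of a transposase into accessible DNA, with 1 library per population and therefore no test. The libraries held 26694946 counts in HFSC and 37912498 in EpdSC. Counts within 1000 bases of the gene start were compared for 13338 genes whose start is given in RefSeq on GRCm38.p6. They are given as log2 ratios of EpdSC over HFSC after division by the library total. Where a gene had several starts, that with the most ATAC signal over both libraries was used. Intervals are exact binomial and cover counting error only. The median ratio was 0.11 over all gene starts and 0.78 for the 1085 genes with RNA at least 2-fold higher in EpdSC, of which 41.3% were at least 2-fold more open in EpdSC, beside 9.57% of all gene starts. For the 1450 genes with RNA at least 2-fold higher in HFSC it was -0.28, and 18.7% were at least 2-fold more open in HFSC, beside 4.27% of all. At 16-fold or more in RNA, 153 genes higher in EpdSC had a median of 2.06 and 317 higher in HFSC a median of -1.02. Genes not called in RNA had a median of 0.11. Across all 13338 genes Pearson's r between the RNA and ATAC log2 values was 0.457, where each ratio comes from the same pair of libraries and genes are not independent.

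**Figure D5:**
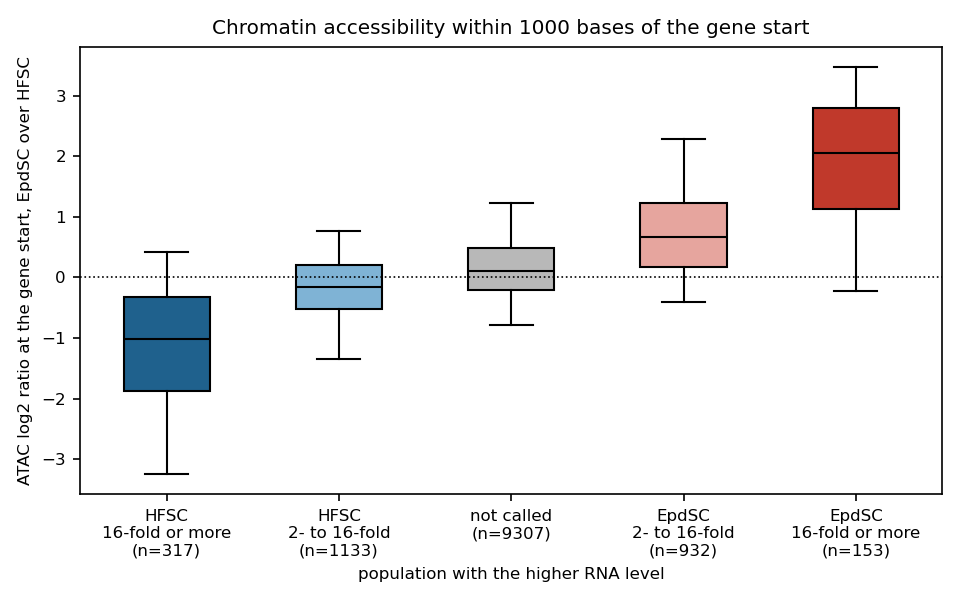
ATAC log2 ratio of EpdSC over HFSC within 1000 bases of the gene start, for genes grouped by their RNA difference. Boxes span the quartiles with a line at the median, whiskers the 5th to 95th percentile, and n is the number of gene starts. The medians rise from -1.02 in genes at least 16-fold higher in HFSC RNA to 2.06 in genes at least 16-fold higher in EpdSC RNA.

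Named genes with a start in the table showed this one by one. Cd34 had 360 ATAC counts in HFSC and 24 in EpdSC, a log2 ratio of -4.38 (95% interval -5.07 to -3.82). Grem1 had 646 ATAC counts in HFSC and 67 in EpdSC, a log2 ratio of -3.77 (95% interval -4.16 to -3.41), and Angptl7 719 ATAC counts in HFSC and 35 in EpdSC, a log2 ratio of -4.85 (95% interval -5.40 to -4.38). Tbx1 had 661 ATAC counts in HFSC and 77 in EpdSC, a log2 ratio of -3.60 (95% interval -3.97 to -3.27) and Lhx2 1129 ATAC counts in HFSC and 333 in EpdSC, a log2 ratio of -2.27 (95% interval -2.45 to -2.09). All 5, of which Cd34 was gated in the sort, were more open in HFSC, where their RNA was higher. Wnt3 had 34 ATAC counts in HFSC and 470 in EpdSC, a log2 ratio of 3.26 (95% interval 2.78 to 3.83), Bmp4 51 ATAC counts in HFSC and 842 in EpdSC, a log2 ratio of 3.53 (95% interval 3.13 to 3.98) and Il33 31 ATAC counts in HFSC and 365 in EpdSC, a log2 ratio of 3.03 (95% interval 2.52 to 3.63). These 3 were more open in EpdSC, where their RNA was higher. Among lists, 9 of 11 Skint gene starts were at least 2-fold more open in EpdSC (median 2.41), as were 13 of 23 of the cytokine and NF-kB list (median 1.24) and 6 of 16 of MHC and antigen presentation (median 0.61).

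Other genes differed in RNA with little difference at the gene start. Krt14, 4.30-fold higher in EpdSC RNA, had 472 ATAC counts in HFSC and 673 in EpdSC, a log2 ratio of 0.01 (95% interval -0.17 to 0.18). Chat, near the floor in EpdSC RNA, had 24 ATAC counts in HFSC and 31 in EpdSC, a log2 ratio of -0.14 (95% interval -0.95 to 0.69). On so few counts the interval for Chat is wide, so a small difference cannot be told from a larger one. Fcgbp, 6.98-fold higher in EpdSC RNA, was slightly less open there, with 404 ATAC counts in HFSC and 408 in EpdSC, a log2 ratio of -0.49 (95% interval -0.69 to -0.29). Of the 21 immediate early genes with a start in the table, 0 were past 2-fold in either direction and the median was -0.07, although their RNA was higher in EpdSC. Fos had 534 ATAC counts in HFSC and 1007 in EpdSC, a log2 ratio of 0.41 (95% interval 0.26 to 0.56) and Junb 752 ATAC counts in HFSC and 1744 in EpdSC, a log2 ratio of 0.71 (95% interval 0.58 to 0.83). Cell cycle genes had a median of 0.01 and ribosomal protein genes of -0.07.

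The DNA before the start of 4 of these genes is printed because their RNA and their accessibility differed in the same direction, Cd34 and Grem1 in HFSC and Wnt3 and Il33 in EpdSC. Each line gives the 250 bases before a RefSeq start on the gene's own strand, 5′ to 3′. CG dinucleotides, the sites of DNA methylation, are in capitals. Where a gene had several RefSeq starts, that with the most ATAC signal over both libraries was used. For Il33 the start used lies inside the gene, at base 29945790. Positions are on GRCm38.p6. They are chr1:194938571-194938820 (plus strand) for Cd34, chr2:113758649-113758898 (minus strand) for Grem1, chr11:103773925-103774174 (plus strand) for Wnt3 and chr19:29945540-29945789 (plus strand) for Il33.
Cd34: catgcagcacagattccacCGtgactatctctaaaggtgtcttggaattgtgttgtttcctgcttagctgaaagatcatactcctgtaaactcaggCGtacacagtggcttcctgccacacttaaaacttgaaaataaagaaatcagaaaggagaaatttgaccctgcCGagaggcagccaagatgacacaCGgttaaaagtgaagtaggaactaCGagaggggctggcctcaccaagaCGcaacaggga
Grem1: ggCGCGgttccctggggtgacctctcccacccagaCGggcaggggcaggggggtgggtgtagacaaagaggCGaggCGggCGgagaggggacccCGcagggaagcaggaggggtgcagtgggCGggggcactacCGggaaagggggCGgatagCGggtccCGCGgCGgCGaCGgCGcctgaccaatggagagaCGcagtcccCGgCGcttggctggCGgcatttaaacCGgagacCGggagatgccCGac
Wnt3: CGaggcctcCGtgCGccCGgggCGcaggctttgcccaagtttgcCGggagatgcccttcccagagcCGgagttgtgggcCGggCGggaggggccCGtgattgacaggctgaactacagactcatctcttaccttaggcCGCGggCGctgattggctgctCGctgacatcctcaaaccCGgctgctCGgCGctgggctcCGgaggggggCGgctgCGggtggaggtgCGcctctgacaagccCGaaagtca
Il33: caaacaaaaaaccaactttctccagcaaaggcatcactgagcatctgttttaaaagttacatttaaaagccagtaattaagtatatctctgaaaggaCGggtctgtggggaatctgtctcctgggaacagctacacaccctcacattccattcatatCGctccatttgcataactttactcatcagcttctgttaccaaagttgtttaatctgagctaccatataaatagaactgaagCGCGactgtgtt

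These promoters differed in base composition within each population. Cd34 held 6 CG dinucleotides (46.4% G and C) and Il33 4 (39.6%), whereas Grem1 held 24 (72.0%) and Wnt3 22 (68.0%). Over 13693 promoters the median was 14 CG dinucleotides in 250 bases, and 21% held 5 or fewer. Of the 154 promoters of genes at least 16-fold higher in EpdSC, 50% held 5 or fewer (median 5.5), and of the 321 at least 16-fold higher in HFSC, 26.8% (median 11). Promoters with 5 or fewer had a median ATAC ratio of 1.08 among genes at least 2-fold higher in EpdSC, and those with more of 0.68. Among genes at least 2-fold higher in HFSC these were -0.48 and -0.23.

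Short motifs were searched on both strands of the 250 bases, as descriptions of the letters. Of the 7 searched, 4 were found in the Il33 promoter and 0 in the others printed. In Il33, TATAAA lay 29 to 24 bases before the start used, which lies inside the gene, and is held by 7.45% of all promoters. None of the 4 matches overlapped another. The TEAD motif GGAATG lay on the reverse strand 107 to 102 bases before it (11.1% of all), the homeobox motif TAATTA 177 to 172 (2.71%) and the KLF motif GGGTGTG on the reverse strand 117 to 111 (7.47%). The AP-1 motif TGANTCA was held by 6.04% of promoters of genes at least 2-fold higher in EpdSC, by 4.50% of those higher in HFSC and by 4.77% of all. The shares of the SOX motif ACAATG were 4.40%, 6.13% and 6.58%, and those of the GATA motif AGATAA 6.04%, 4.97% and 6.43%. For TATAAA they were 9.62%, 6.27% and 7.45%, and for the KLF motif 9.62%, 8.92% and 7.47%. For the TEAD motif they were 12%, 12.5% and 11.1%, and for the homeobox motif 2.93%, 2.04% and 2.71%.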

How the data were processed

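RNA was read in 8 libraries, 2 for each population at each age. The authors deposited raw counts per gene, and per the labels' protocols total RNA was made into TruSeq libraries. The submitters' processing notes name STAR, Bowtie, Cell Ranger and the build mm10 without versions. Which annotation release, strand setting and treatment of duplicates were used was not given in the sources used here, so reads of overlapping and antisense genes cannot be told apart. Of 47729 genes in the table, 21464 passed edgeR's filterByExpr by group, and 126 symbols stood on more than 1 row.

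Counts were scaled by TMM and tested with edgeR 4.0.16 (R 4.3.3, limma 3.58.1) in 1 quasi-likelihood fit of the 8 libraries, with a term per group and Benjamini-Hochberg adjustment over all genes tested. The common biological coefficient of variation was 0.277. The SE is the log2 fold change divided by the square root of F. DESeq2 1.42.0 was an alternative, beside other scalings, filters, a fold of 2, a block and leaving out each library. The code was tested on simulated data.

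The comparison, the 48 lists (1097 genes, 1036 tested) and the choice of tests were made with earlier results of these data known. Genes were named by a rule. It took the sort markers, and the 12 largest folds and the 10 largest CPM differences each way among called genes. From each list it took at most 6 called members by smallest p and 3 uncalled ones by highest level. The called genes, sort markers aside, had to reach 5 CPM in the higher population. Their libraries also had to show no overlap between the populations. A further 106 genes were named after their values were seen, among them members of small counts.

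ATAC counts deposited by the authors cover overlapping windows of 500 bases, of which every other one was used so that none overlapped. Ratios used a pseudocount of 0.5 and gene starts with at least 20 counts. Promoters and gene starts are RefSeq's on GRCm38.p6, with 1 start per gene, that with the most ATAC signal over both libraries. Intervals are at 95% and cover counting error only. The single-cell libraries were not used here.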

Additional observations from a re-analysis of the deposited data

Results flagged for a closer look

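Ly6e, a membrane-anchored protein of the Ly6 family, was flagged because the difference between the populations was not the same at both ages. The log2 fold change of EpdSC minus HFSC at 24 months less that at 2 months was -2.70 (SE 0.27, edgeR adjusted p = 0.0144). At 2 months both EpdSC libraries stood far above both HFSC libraries, and at 24 months they stood above them by less, at 62.5 and 91.9 CPM in HFSC and 122 and 116 CPM in EpdSC, with both HFSC libraries above their levels at 2 months. Without the 24-month EpdSC replicate 2 the difference was -2.65 and its adjusted p 0.0949. Over the other libraries left out in turn, its adjusted p ranged from 0.00099 to 0.029. Reads of related Ly6 genes may have been shared in counting, and their part in this difference was not tested.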

How the results depend on the processing

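Of 5600 calls, none turned sign in any setting tried. Genes higher in EpdSC and in HFSC numbered 2540 and 2713 in a fit of the 4 libraries of 2-month mice, 2809 and 2833 with RLE size factors, 2602 and 3036 with no composition factor, 2921 and 2748 without mitochondrially encoded genes, 2995 and 2831 with no filter, 2876 and 3033 at 1 CPM or more in 2 libraries, and 2982 and 3049 in DESeq2. A test against a fold of 2 gave 872 and 1309. Leaving out each of the 8 libraries in turn gave 1685 to 3216 genes higher in EpdSC and 1983 to 2745 higher in HFSC, with the fewest without the 2-month EpdSC replicate 1.

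The replicate numbers are shared only as numbers, since no label says that they mark a litter, animal or day. Same-numbered libraries deviated from their group means with a correlation of 0.227 at 2 months and 0.224 at 24 months, over 10799 genes. With the replicate block 2956 genes were higher in EpdSC and 2814 in HFSC, and the difference between the ages was called for 3 genes.

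That difference, called for 1 gene, was called for 95 in DESeq2 and 285 with no filter. In edgeR's test against a fold of 2 it was called for 0, beside 389 at an unadjusted p under 0.05. Leaving out libraries gave 0 to 63 genes. The causes were not tested.

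Of 294 called genes named in the text, 273 kept their call in every setting other than the fold of 2, and the other 21 lost it when a library was left out. Of these, Cd207, Lgr6 and Nr4a2 also lost it in the fit of the 4 libraries of 2-month mice (edgeR adjusted p = 0.0596, 0.087 and 0.058), and Cd207 and Tyrobp with the replicate block (0.0588 and 0.0507). Log2 fold changes of 3 uncalled genes turned sign. With libraries left out in turn, that of Itgb4 ran from -0.0584 to 0.284, of Krt15 from -0.405 to 0.0219 and of Nfix from -0.0568 to 0.173, and with no composition factor that of Nfix was -0.0235. Of 47 lists with more calls one way, 5 turned in a setting. These were the WNT pathway, the sebaceous genes, cholesterol and fatty acid synthesis (2 and 3 at a fold of 2), potassium channels (7 and 6 without the 2-month HFSC replicate 1) and semaphorins, plexins, ephrins and Eph receptors (13 and 12 without the 2-month EpdSC replicate 2).

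Centred on all gene starts, the ATAC medians were 0.67 for genes higher in EpdSC and -0.39 for those higher in HFSC. Windows of 500 or 2500 bases and a minimum of 50 counts gave 0.76 to 0.82 and -0.29 to -0.25. The ATAC comparison has 1 library per population and no test.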
